A study of Mus musculus with 7 samples.

Results

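Radial neural precursors of the early postnatal mouse brain were picked out of single-cell RNA libraries as cells with RNA of a small marker group and few signs of commitment, division or motile cilia. A cell was kept when at least 500 genes were detected and at most 10% of its UMIs (unique molecular identifiers, each standing for a captured transcript) came from mitochondrial genes. A kept cell counted as a radial precursor with at least 2 UMIs of Veph1, Tfap2c, Vnn1, Pter and Ptx3 together and at least 5 of Slc1a3 and Fabp7. It could hold at most 1 UMI of Egfr, Dll1 and Pdgfra together, at most 2 of Mki67, Top2a, Birc5, Cenpf and Ube2c, and at most 1 of Rsph1, Ccdc153 and Tmem212. This rule found 1103 cells among 11149 kept cells of 3 libraries: 371 of 3726 in P7 SVZ, 493 of 4140 in P7 cortex and 239 of 3283 in P2 cortex. The whole series held 21002 kept cells in 7 libraries. The cells were thus chosen by their measured UMIs of these genes, whose levels are given only as a description, without a test.

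The series holds 1 library for each group, all made with the 10x Chromium 3' kit from mouse brain, with no treatment. The P7 SVZ mice were C57BL/6, and their dorsal and lateral ventricular-subventricular zone (V-SVZ) was cut out. P7 cortex and P2 cortex came from CD1 mice and from the tissue above the lateral ventricles, which holds the V-SVZ together with white and grey matter of the cortex. P15 cortex and P60 cortex were cut from CD1 mice in the same way, P60 white matter held the corpus callosum with the V-SVZ, and P60 grey matter lay above the white matter. No label says how many animals gave a library, and no group has a replicate. The spread between libraries may thus hold technical differences together with those of age, dissection and strain. Deposited libraries held 2127 to 6379 barcodes and 10074763 to 45668007 UMIs. In P7 SVZ 2132 of 6379 barcodes were over the mitochondrial limit, and radial precursors there had a median of 4.75% mitochondrial UMIs, against 2.17% in P7 cortex and 1.90% in P2 cortex. Pairs of libraries shared 0 to 28 barcodes, none of them a radial precursor in both.

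Radial glia line the ventricles of the embryonic brain and give rise first to neurons and later to glia. After birth most of them transform, and some stay in the wall of the lateral ventricle as largely quiescent stem cells that make olfactory bulb neurons and glia. Precursors from the dorsal wall derive from Emx1-expressing cortical radial glia, and those from the lateral wall from Gsx2-expressing ganglionic eminence. Among the genes of the rule, Fabp7 encodes the brain lipid-binding protein and Slc1a3 a glial glutamate transporter, both used as marks of radial glia and astrocytes. Tfap2c encodes the transcription factor AP-2 gamma, Veph1 a membrane-binding protein named for its expression in the ventricular zone, Vnn1 a pantetheinase, Pter a phosphotriesterase-related enzyme and Ptx3 a secreted pentraxin.

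Veph1 and Ptx3 share a locus. Veph1 spans chr3:66053558-66296837 on the minus strand of GRCm38 (the mm10 assembly), and Ptx3 spans chr3:66219910-66225805 on the plus strand, inside a Veph1 intron: 0 of its 2682 exon bases are Veph1 exon (GENCODE M21). Their starts lie 76927 bases apart. Tfap2c lies at chr2:172549593-172558622, Vnn1 at chr10:23894688-23905343, Pter at chr2:12924041-13003455 and Fabp7 at chr10:57784881-57788450, all on the plus strand. The promoter windows below run from 250 bases before to 50 after the annotated start (RefSeq, GRCm38.p6), read 5′ to 3′ on the strand of the gene. They are shown for the marker pair that shares a locus and for Plagl1 and Vim, 2 genes outside the rule described further on. The Plagl1 window lies within the gene span of GENCODE M21 (chr10:13060504-13131694), away from its outer start. Capitals mark GCCNNNGGC, a palindromic AP-2 type motif that reads the same on both strands.
Plagl1, chr10:13090582-13090881, plus strand: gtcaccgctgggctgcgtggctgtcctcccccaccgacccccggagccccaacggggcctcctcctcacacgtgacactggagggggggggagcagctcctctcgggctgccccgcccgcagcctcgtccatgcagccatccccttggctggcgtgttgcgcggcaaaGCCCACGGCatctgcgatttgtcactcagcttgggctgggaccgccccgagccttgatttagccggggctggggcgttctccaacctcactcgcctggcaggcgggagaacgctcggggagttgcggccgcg
Vim, chr2:13574061-13574360, plus strand: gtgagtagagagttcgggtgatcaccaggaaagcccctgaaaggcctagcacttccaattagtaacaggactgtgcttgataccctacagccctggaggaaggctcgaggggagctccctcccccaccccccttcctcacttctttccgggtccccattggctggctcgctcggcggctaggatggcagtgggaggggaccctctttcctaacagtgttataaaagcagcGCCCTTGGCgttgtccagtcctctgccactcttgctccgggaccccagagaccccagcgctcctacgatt
Veph1, chr3:66296788-66297087, minus strand: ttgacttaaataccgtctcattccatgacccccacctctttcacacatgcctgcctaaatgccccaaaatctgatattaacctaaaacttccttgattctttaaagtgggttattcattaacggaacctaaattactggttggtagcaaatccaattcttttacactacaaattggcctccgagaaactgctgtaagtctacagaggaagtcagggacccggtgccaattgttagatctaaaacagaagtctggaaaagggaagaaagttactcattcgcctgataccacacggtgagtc
Ptx3, chr3:66219637-66219936, plus strand: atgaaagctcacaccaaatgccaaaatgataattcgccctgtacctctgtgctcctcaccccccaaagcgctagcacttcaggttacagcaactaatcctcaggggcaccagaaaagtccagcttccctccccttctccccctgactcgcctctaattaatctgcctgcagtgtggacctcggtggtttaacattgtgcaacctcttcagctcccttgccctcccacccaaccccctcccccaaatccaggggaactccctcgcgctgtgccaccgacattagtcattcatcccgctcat
The motif started 82 bases before the Plagl1 start and 20 before the Vim start, and these letters were not in the Veph1 and Ptx3 windows. Of all 32851 RefSeq windows of this length, 5450 (16.6%) held it. Among the 12 genes with the largest excess in radial precursors over marker-negative cells, 9 had a window, and 2 of their 10 windows held the motif. Of the 24 listed radial and stem cell genes, 21 had a window, and 9 of their 30 windows held the motif. These matches describe the sequence and say nothing of binding.

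Radial precursors were a feature of the early libraries. They made up 7.28% of kept cells in P2 cortex (95% exact binomial interval 6.41 to 8.22), 9.96% in P7 SVZ (9.01 to 11.0), 11.9% in P7 cortex (10.9 to 12.9) and 1.08% in P15 cortex (0.736 to 1.53). At P60 the rule found 1 of 3115 cells in cortex, 0 of 1879 in grey matter, which allows a share of up to 0.160% (3 counts of the total; the exact interval ends at 0.196%), and 0 of 1992 in white matter, which allows up to 0.151% (exact interval to 0.185%). Intervals and limits cover counting error only, as each group is a single library. After every cell was thinned to 3000 UMIs the shares were 5.19% in P2 cortex, 5.73% in P7 SVZ, 8.70% in P7 cortex and 0.690% in P15 cortex, which brought P7 SVZ and P2 cortex closer together. Kept cells that met all terms but the radial marker term numbered 466 in P2 cortex, 844 in P7 SVZ, 1779 in P7 cortex, 933 in P15 cortex and 935 in P60 cortex. Radial precursors were 51.3%, 44.0%, 27.7%, 3.32% and 0.107% of them in the same order.

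**Figure D1:**
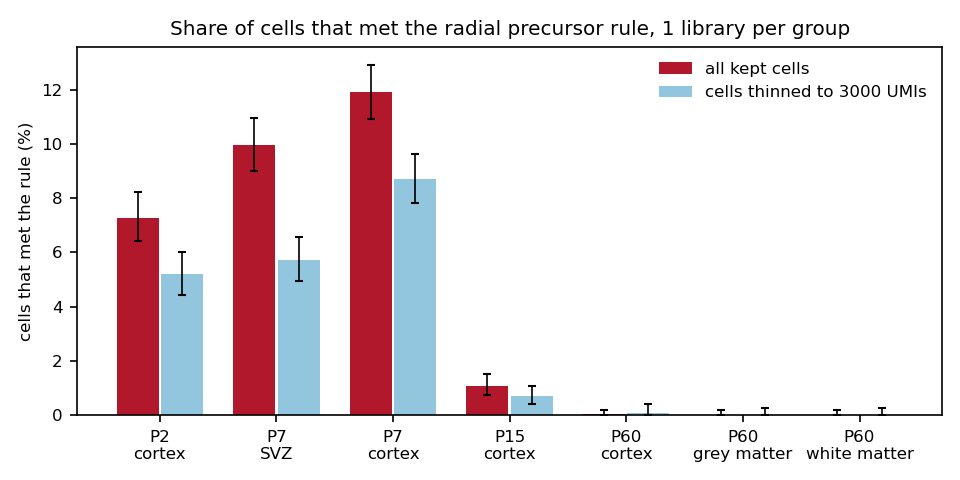
Share of kept cells that met the radial precursor rule (y axis, percent) in 7 libraries (x axis), with all UMIs and after thinning each cell to 3000 UMIs; bars are 1 library each and lines are exact binomial 95% intervals. The shares lay between 7.28% and 11.9% in the P2 and P7 libraries and at 1.08% in P15 cortex, with 1 such cell in the 3 P60 libraries.

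Each marker was lower at P15 and P60 than at P2 and P7 in the pooled cells that met the other terms of the rule, whether or not they met the marker term. Veph1 stood at 73.0 CPM (UMIs of the gene scaled to a fixed total of UMIs in the summed cells) in P2 cortex, 70.3 in P7 SVZ, 30.0 in P7 cortex and 1.53 in P15 cortex, and had no UMI in the 3 P60 libraries. Ptx3 stood at 128 CPM in P2 cortex, 83.5 in P7 SVZ, 70.5 in P7 cortex and 3.51 in P15 cortex, also with none at P60. Pter was the marker with UMIs in every P60 library, at 1.97 to 2.93 CPM, against 114 CPM in P2 cortex. These levels rested on 8 UMIs in P60 cortex, 1 in P60 grey matter and 1 in P60 white matter. Tfap2c had 2 UMIs (3.94 CPM) in P60 white matter. With 1 library per group these levels have no replicate check.

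Markers varied among the radial precursors themselves. Of the 1103 cells, 276 lay at the limit of 2 marker UMIs, 209 held 3 and 618 held 4 or more, and 447 cells just outside the rule held 1 marker UMI. A single marker gene carried the call in 126 cells, while 438 held 2 of the 5 genes, 301 held 3 and 238 held 4 or 5. Ptx3 was detected in 70.4% of radial precursors in P7 SVZ, 75.1% in P7 cortex and 79.9% in P2 cortex, and Veph1 in 66.6%, 48.5% and 63.2% of them in the same libraries. Vnn1 was the marker that differed most between libraries, detected in 16.4% of radial precursors in P7 SVZ, 53.5% in P7 cortex and 31.4% in P2 cortex. Fabp7 reached 9713 CPM in P7 SVZ, 7718 CPM in P7 cortex and 20148 CPM in P2 cortex.

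RNA of other cell types was present in the summed radial precursors, mostly below its level in all kept cells. Oligodendrocyte precursor markers (8 genes) summed to 96.1 CPM in P7 SVZ, 183 in P7 cortex and 89.8 in P2 cortex, and microglial markers (8 genes) to 370, 407 and 118 CPM, against 19289 to 22312 CPM in cells called microglial. Ependymal markers (8 genes) summed to 113, 145 and 81.2 CPM, against 42.7, 182 and 64.2 CPM in all kept cells, with Tmem212, a gene of the rule, at 0. The rule also limits Rsph1 and Ccdc153 of this set and Pdgfra of the oligodendrocyte precursor set. Mural markers (6 genes) summed to 134, 122 and 134 CPM, against 105, 155 and 38.3 CPM in all kept cells. Neuroblast markers (10 genes) summed to 169, 183 and 315 CPM and excitatory neuron markers (8 genes) to 107, 21.8 and 124 CPM. Choroid plexus markers (5 genes) lay at 5.96, 0.295 and 0 CPM and endothelial markers (6 genes) at 14.5, 44.5 and 19.6 CPM. Astrocyte markers (8 genes), which many precursors share, summed to 4912, 6596 and 4023 CPM. Doublet calls made up 33 of the 1103 cells, a larger share than the 172 of all 11149 kept cells of these libraries. The markers of the label are also the genes of the rule, so they are no check on it; the listed radial and stem cell genes are described below, and no measurement here shows where the cells sat in the tissue.

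The first comparison asked how radial precursors differ from astroglial cells with none of the markers. Marker-negative cells met every other term and held 0 marker UMIs (334 in P7 SVZ, 1030 in P7 cortex and 175 in P2 cortex, 1539 in all). Counts were summed per library and class and tested with the library as a block, leaving out the genes of the rule. Of 11396 genes, 1277 were higher in radial precursors (11.2%) and 1289 lower (11.3%) at an edgeR adjusted p under 0.05. The other genes were read in the same cells that the markers chose, so the differences describe the gated classes. Marker-negative cells were a mixture: their oligodendrocyte markers (6 genes) summed to 4532, 5764 and 1606 CPM in P7 SVZ, P7 cortex and P2 cortex, against 77.1, 218 and 13.2 CPM in radial precursors. Microglial markers lay at 370, 407 and 118 CPM in radial precursors and 96.0, 533 and 32.5 CPM in marker-negative cells, and the part of such RNA in the differences was not tested. The test was therefore repeated on cells of both classes with at most 3 UMIs of 24 genes of other lineages, which kept 881 radial precursors and 459 marker-negative cells. In P2 cortex 188 of 239 radial precursors but only 23 of 175 marker-negative cells were kept. This comparison, chosen after the data were seen, is called the restricted comparison below. Of 9522 genes tested it gave 429 higher (4.51%), 300 of them also higher in the full comparison, and 534 lower (5.61%), 202 of them also lower there.

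The 12 genes with the largest excess in radial precursors were Lipg, Adamts18, Shroom3, Plagl1, Thbs4, Col4a4, Cyp39a1, Uaca, Enkur, Capsl, Riiad1 and S1pr3. Lipg, which encodes endothelial lipase, had 24.96, 27.7 and 42.6 CPM in radial precursors of P7 SVZ, P7 cortex and P2 cortex, against 2.91, 0.828 and 1.80 CPM in marker-negative cells (log2 fold change 4.13, SE 0.40, edgeR adjusted p = 9.62e-05; 2.66 in the restricted comparison). The bare values in brackets that follow are log2 fold changes of the same kind. Plagl1, an imprinted zinc finger transcription factor, had 113, 101 and 153 CPM in radial precursors of the same libraries, against 14.2, 8.14 and 7.21 CPM in marker-negative cells (3.50, SE 0.26, edgeR adjusted p = 2.03e-05; 2.21 restricted). Both were higher in radial precursors in 3 of 3 libraries, which the choice of named genes required, so this agreement is no added support. After thinning to 3000 UMIs, Plagl1 was detected in 27.6%, 28.5% and 37.7% of radial precursors, against 7.17%, 2.82% and 3.73% of marker-negative cells and 0.725%, 0.469% and 0% of microglial cells, which stand for free RNA.

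Adamts18, a secreted metalloprotease, had 28.7, 29.5 and 57.6 CPM in radial precursors of P7 SVZ, P7 cortex and P2 cortex, against 4.36, 1.38 and 3.61 CPM in marker-negative cells (3.64, SE 0.40). For Shroom3, an actin-binding protein of apical constriction, the levels were 33.2, 50.1 and 66.8 CPM in radial precursors, against 6.91, 2.76 and 1.80 CPM in marker-negative cells (3.57, SE 0.39). Col4a4, a basement membrane collagen chain, stood at 32.0, 29.2 and 17.9 CPM in radial precursors, against 4.36, 2.34 and 0 CPM in marker-negative cells (3.45, SE 0.40). All 3 were higher in every library, again as the choice of named genes required. Uaca, Cyp39a1 (an oxysterol hydroxylase) and S1pr3 (a receptor for sphingosine 1-phosphate) had log2 fold changes of 3.30, 3.35 and 2.96. Enkur, Capsl and Riiad1, of which Enkur encodes a ciliary protein, had log2 fold changes of 3.27, 3.14 and 3.08. The 12 named genes remained higher in 12 of 12 cases in the restricted comparison, with smaller log2 fold changes of 1.44 (Riiad1) to 2.88 (Uaca).

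Thbs4, a thrombospondin of V-SVZ astroglia, was the named gene with the least even excess. It had 32.4 CPM in P7 SVZ, 92.6 CPM in P7 cortex and 1.15 CPM in P2 cortex in radial precursors, against 9.09, 2.48 and 0 CPM in marker-negative cells (3.49, SE 0.66, edgeR adjusted p = 0.00422). Without P7 cortex its edgeR adjusted p was 0.141. After thinning, it was detected in 8.40%, 18.8% and 0.433% of radial precursors, against 3.23%, 0.565% and 0% of marker-negative cells.

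**Figure D2:**
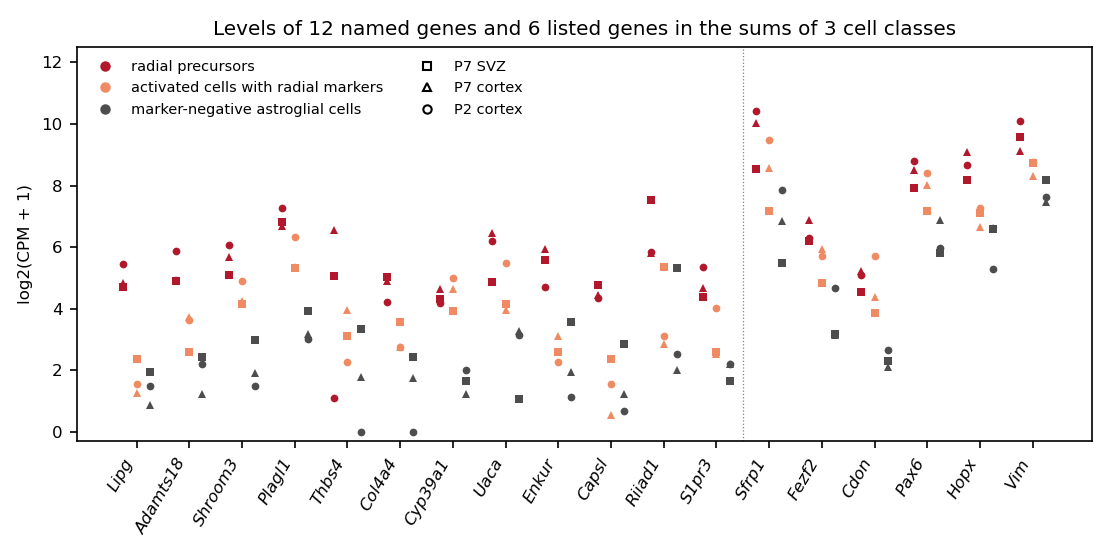
Levels (y axis, log2(CPM + 1)) of 12 named genes and, right of the dotted line, 6 listed genes in the sums of radial precursors, activated cells with radial markers and marker-negative cells; each point is 1 library, with the library given by its shape. Lipg, Plagl1, Sfrp1 and Pax6 lay higher in radial precursors than in marker-negative cells of the same library in all 3 libraries, while Thbs4 was at 1.15 CPM in radial precursors of P2 cortex.

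The genes with the largest deficit were those of the oligodendrocyte lineage. Mbp, a myelin protein, had 29.4, 108 and 3.46 CPM in radial precursors of P7 SVZ, P7 cortex and P2 cortex, against 1607, 2685 and 917 CPM in marker-negative cells (log2 fold change -5.68, SE 0.46, edgeR adjusted p = 2.88e-05). Mag (-5.51), Cldn11 (-5.47), Enpp6 (-5.91), Gpr17 (-5.18) and Bcas1 (-5.11) fell with it, as did Gjc3, Plxnb3, Gal3st1, Ugt8a and Neu4. None of the 12 genes with the largest deficit could be tested in the restricted comparison.

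Genes known from radial glia and adult stem cells were mostly higher. Of 24 listed, 18 rose and 0 fell (median log2 fold change 1.32, against -0.04 over all genes tested), but in the restricted comparison 8 rose and 5 fell (median 0.41, against 0.02). Vim, an intermediate filament of radial glia, had 760.3, 560.5 and 1084 CPM in radial precursors of P7 SVZ, P7 cortex and P2 cortex, against 289, 175 and 196 CPM in marker-negative cells (1.79, SE 0.19, edgeR adjusted p = 0.00017; 0.67 restricted). For Pax6, a transcription factor of cortical radial glia, the levels were 242, 365 and 445 CPM, against 55.6, 118 and 61.9 CPM in marker-negative cells (2.08, SE 0.23; 0.90 restricted). Hopx, a homeodomain protein of outer radial glia and quiescent stem cells, had 287, 546 and 404 CPM, against 95.3, 97.8 and 38.5 CPM in marker-negative cells (2.36, SE 0.33; 0.64 restricted). Nes (1.61), Nr2e1 (1.85), Fam107a (1.91) and Lhx2 (1.26) rose too, and all 7 genes passed the test in both comparisons. Gfap, shared by stem cells and astrocytes, rose in the full comparison (1.69, SE 0.27, edgeR adjusted p = 0.00183) but not in the restricted one (-0.45, edgeR adjusted p = 0.157). Ptprz1 (-0.87) and Lrig1 (-1.97) were among the 5 that fell there.

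Genes of astrocyte maturation separated the classes once cells with RNA of other lineages were set aside. In the full comparison 2 of 30 rose and 5 fell (median -0.39), and in the restricted one 0 of 29 rose and 22 fell (median -1.35, against 0.02 over all genes). Aqp4, the astrocytic water channel, had 433, 632 and 118 CPM in radial precursors of P7 SVZ, P7 cortex and P2 cortex, against 605, 1199.5 and 122 CPM in marker-negative cells, and its restricted log2 fold change was -1.96 (edgeR adjusted p = 7.83e-11). S100b, a calcium-binding protein of mature astrocytes, fell in both comparisons (-4.12 and -2.75), and so did Agt (-1.69 and -2.62), Igfbp2 (-1.69 and -2.98) and Btbd17 (-1.44 and -2.59). Mlc1, a membrane protein of astrocyte endfeet, rose in the full comparison (1.02) and did not pass in the restricted one (-0.10). The full counts rested on single libraries: 7 rose and 2 fell without P7 cortex, and 2 rose and 9 fell without P2 cortex. Without P7 SVZ the edgeR adjusted p was 0.0628 for Agt and 0.0541 for Igfbp2, and without P7 cortex it was 0.0628 and 0.173.

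Genes tied to stem cell quiescence, a list that mixes BMP targets and metabolic genes, gave 12 of 21 higher and 1 lower in the full comparison (median 0.90) and 3 of 20 higher and 5 lower in the restricted one (median -0.12). Id4, a helix-loop-helix inhibitor, had 727, 1315 and 949 CPM in radial precursors of P7 SVZ, P7 cortex and P2 cortex, against 288, 277 and 78.1 CPM in marker-negative cells (2.22, SE 0.36; 0.71 restricted). Ntrk2, the BDNF receptor, rose by 1.79 (0.74 restricted) and Hes1, a Notch effector, by 1.48 (0.62 restricted). Id3 fell in the restricted comparison (-1.70) and did not pass in the full one (-0.26). Without P7 SVZ the full comparison had 8 of 21 higher, and Hes1 was not called (edgeR adjusted p = 0.0911).

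Counts in the signalling lists stand beside shares over all genes of 11.2% higher and 11.3% lower (4.51% and 5.61% restricted), and those of the Notch, BMP and S phase lists were near them. In the Wnt list 6 of 18 tested rose and 3 fell (1 of 15 and 3 of 15 restricted). Sfrp1, a secreted Wnt inhibitor at chr8:23411502-23449632, had 367, 1048 and 1364 CPM in radial precursors of P7 SVZ, P7 cortex and P2 cortex, against 44.4, 116 and 229.6 CPM in marker-negative cells (2.88, SE 0.16, edgeR adjusted p = 3.48e-06; 1.72 restricted). In the Hedgehog list 5 of 11 rose and 2 fell (2 and 2 of 10 restricted); Cdon, a co-receptor, rose by 2.87 (2.56 restricted) and Gas1, another co-receptor, by 1.76 (0.84 restricted), while Gpr37l1 fell (-2.10; -2.89 restricted). In the Notch list 3 of 17 rose and 2 fell, and Jag1, a ligand, had 28.7, 11.5 and 10.4 CPM, against 4.73, 2.62 and 0.601 CPM in marker-negative cells (2.44, SE 0.33; 1.89 restricted). In the BMP list 2 of 16 rose and 1 fell: Bmp4 was at 9.31, 5.31 and 0.576 CPM in radial precursors and 276, 154 and 65.5 CPM in marker-negative cells. Oligodendrocyte markers summed to 4532, 5764 and 1606 CPM in these marker-negative cells, and the part of such RNA in the Bmp4 fall was not tested. In the FGF list 2 of 13 rose and 3 fell, and in the restricted comparison 0 of 10 rose and 5 fell, with Etv4, a target of FGF signalling, at -2.98. Of 14 temporal identity and growth genes tested, 6 rose and 2 fell (3 and 1 of 11 restricted), with Plagl1 and Zbtb20 (1.15; 0.65 restricted) higher in both. Activation and commitment genes gave 1 higher and 4 lower of 20. Of 24 S phase genes, 3 rose and 0 fell. Without P7 SVZ the genes called higher were 3 of 18 for Wnt, 0 of 13 for FGF and 3 of 13 for temporal identity; without P7 cortex they were 6 of 16 for Notch, 4 of 13 for FGF, 3 of 14 for temporal identity and 1 of 24 for S phase.

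Matrix and adhesion genes gave 8 of 23 higher and 2 lower, and 3 higher and 8 lower in the restricted comparison. Sparc, a collagen-binding matricellular protein, had 1868, 1879 and 1004 CPM in radial precursors of P7 SVZ, P7 cortex and P2 cortex, against 572, 449.9 and 133 CPM in marker-negative cells (2.13, SE 0.23; 1.31 restricted). Cdh4 (1.69; 1.37 restricted) and Lama2 (1.83; 1.13 restricted) also rose in both. In the lipid and sterol list 4 of 23 rose and 1 fell, against 1 higher and 10 lower of 24 in the restricted comparison. Without P7 SVZ 5 of 23 matrix genes and 1 of 23 lipid genes rose, and without P7 cortex 12 matrix genes rose and Lama2 was not called (edgeR adjusted p = 0.0654).

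Genes of the ependymal and cilium programme were higher in radial precursors at low levels, though the rule had removed cells with RNA of motile cilia. Of 8 tested, 5 rose and 0 fell (2 and 0 of 9 restricted). Foxj1, the transcription factor of motile cilia, had 26.8, 16.8 and 14.97 CPM in radial precursors of P7 SVZ, P7 cortex and P2 cortex, against 11.3, 3.17 and 3.01 CPM in marker-negative cells (1.82, SE 0.40; 0.91 with edgeR adjusted p = 0.163 restricted). Mia (2.36; 1.11 restricted) and Tekt1 (2.17; 1.55 restricted) passed in both comparisons. Without P7 cortex 1 of 8 rose, and Foxj1 and Tekt1 were not called (edgeR adjusted p = 0.06 and 0.125); without P7 SVZ Tekt1 was not called (edgeR adjusted p = 0.113) and 3 of 7 rose. Genes that respond to tissue dissociation rose as well, 9 of 16 with 0 lower (5 and 0 of 16 restricted): Fos had 2158, 1809 and 1405 CPM in radial precursors, against 884, 634 and 346 CPM in marker-negative cells (1.54, SE 0.20; 0.58 restricted). Of the dissociation genes 6 rose when either P7 SVZ or P7 cortex was left out. The part of handling in the other differences was not tested.

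**Figure D3:**
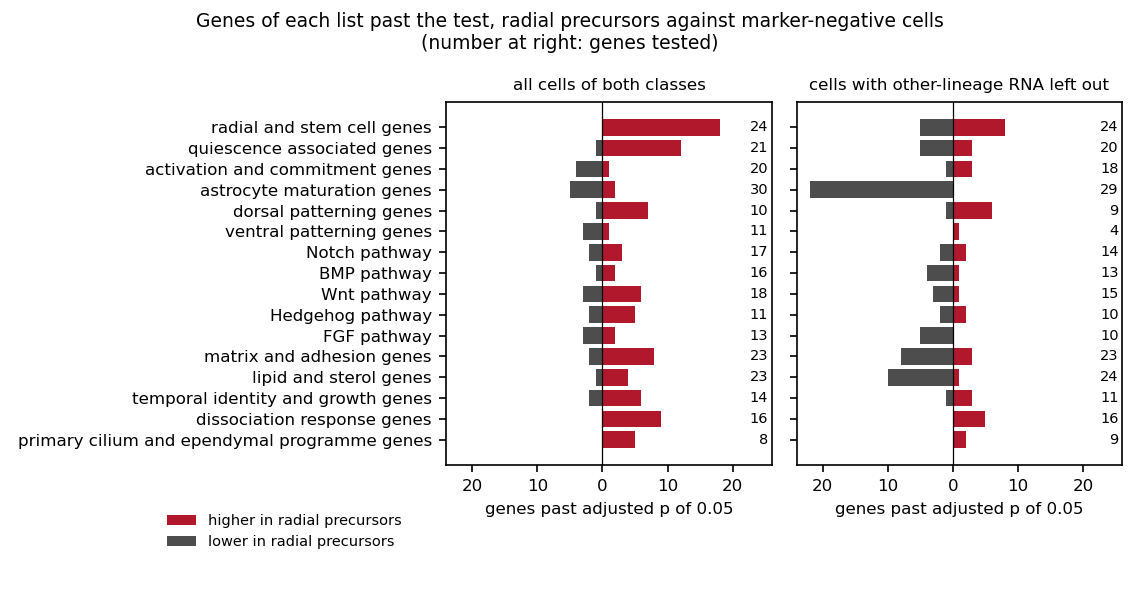
Number of genes (x axis) of each list (y axis) that were higher or lower in radial precursors than in marker-negative cells at an edgeR adjusted p under 0.05, over all cells (left) and without cells that held RNA of other lineages (right); the number at the right edge is the genes tested. Radial and stem cell genes had 18 higher and 0 lower on the left and 8 and 5 on the right, and astrocyte maturation genes had 5 lower on the left and 22 on the right.

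Dorsal patterning genes were mostly higher in radial precursors. Of 10 dorsal genes tested, 7 rose and 1 fell against marker-negative cells (median 1.14), and 6 of 9 rose and 1 fell in the restricted comparison (median 0.67). Fezf2, a cortical transcription factor at chr14:12342094-12348189, had 71.9, 117 and 78.3 CPM in radial precursors of P7 SVZ, P7 cortex and P2 cortex, against 8.002, 7.86 and 24.6 CPM in marker-negative cells (2.90, SE 0.36, edgeR adjusted p = 0.0004; 2.36 restricted). Emx1, which marks the cortical lineage, had 28.7, 66.4 and 70.8 CPM, against 9.09, 15.7 and 49.3 CPM (1.36, SE 0.27, edgeR adjusted p = 0.00535; 1.17 restricted), though its edgeR adjusted p was 0.086 without P7 cortex. Dmrta2 (1.44; 0.90 restricted) rose too, and Zic1 fell (-1.18; -1.91 restricted). Of 11 ventral genes tested, 1 rose and 3 fell. Meis2 rose, and Olig2, Gsx1 and Dlx1 fell, with Olig2 at 15.6, 21.5 and 18.4 CPM in radial precursors and 197, 263 and 156 CPM in marker-negative cells. Olig2 is also an oligodendrocyte precursor marker, a set that summed to 1450, 1458 and 1220 CPM in marker-negative cells. Dlx1 is also a neuroblast marker, a set at 343, 364 and 1719 CPM there, against 169, 183 and 315 CPM in radial precursors. The part of such cells in these falls was not tested. Without P7 SVZ the edgeR adjusted p was 0.301 for Dlx1, and without P7 cortex it was 0.0897 for Dlx1 and 0.249 for Zic1; without P2 cortex it was 0.0751 for Zic1.

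Cell by cell, Emx1 was common and Gsx2 rare. In P7 SVZ 65 of 371 radial precursors held Emx1 UMIs without Gsx2, 12 held Gsx2 without Emx1 and 0 held both; in P7 cortex 168, 7 and 3 of 493 did so, and in P2 cortex 95, 3 and 0 of 239. At 3000 UMIs per cell, which 369 of 371, 485 of 493 and 231 of 239 radial precursors reached, Emx1 was detected in 8.40% of radial precursors in P7 SVZ (5.78 to 11.7), 18.4% in P7 cortex (15.004 to 22.1) and 20.8% in P2 cortex (15.7 to 26.6), against 4.30%, 5.88% and 10.6% of marker-negative cells and 1.45%, 0.939% and 0% of microglial cells. Fezf2 was detected in 18.7%, 28.0% and 21.2% of radial precursors and 2.51%, 2.82% and 5.59% of marker-negative cells. P7 SVZ had the lowest Emx1 share of the 3 libraries in radial precursors and in marker-negative cells alike; strain, dissection and library differ together there. Gsx2 was detected in 0.813%, 0.825% and 0.866% of radial precursors after thinning, with intervals that overlap those of microglial cells, so Gsx2 was not detectable above the level of free RNA at this depth.

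**Figure D4:**
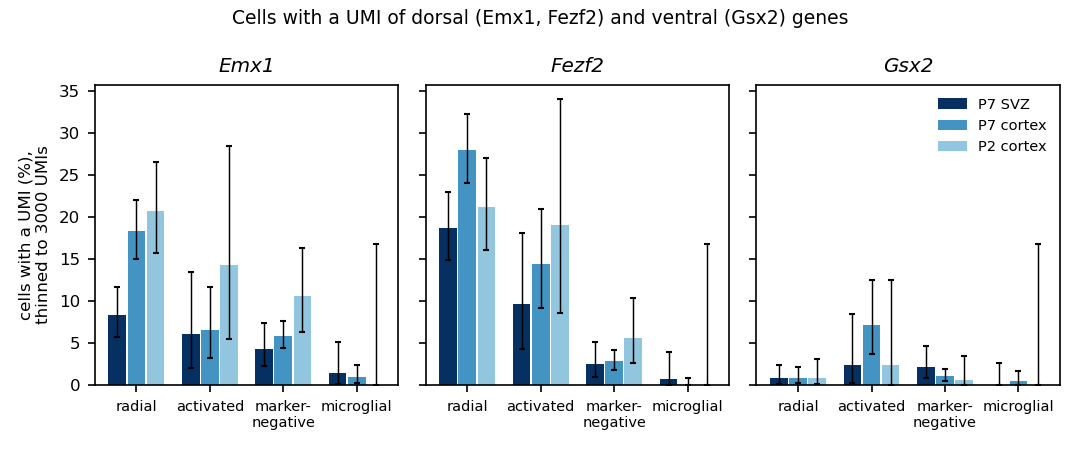
Percent of cells (y axis) with at least 1 UMI of Emx1, Fezf2 or Gsx2 after thinning each cell to 3000 UMIs, in radial precursors, activated cells with radial markers, marker-negative and microglial cells (x axis) of 3 libraries; lines are exact binomial 95% intervals. Emx1 stood at 8.40% to 20.8% and Fezf2 at 18.7% to 28.0% of radial precursors, and Gsx2 at 0.813% to 0.866% of radial precursors.

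The second comparison set radial precursors against activated cells with radial markers, which met the marker and astroglial terms but held more Egfr, Dll1 and Pdgfra UMIs or more mitotic UMIs than the rule allows (83 in P7 SVZ, 153 in P7 cortex and 42 in P2 cortex). These cells were deeper, with medians of 13222, 13703 and 11997.5 UMIs, against 6534, 6407 and 6798 UMIs in radial precursors. Activated cells of P7 cortex also held erythrocyte RNA. The 5 erythrocyte markers summed to 5095 CPM in them, against 38.9 CPM in radial precursors of P7 cortex. In activated cells of P7 SVZ and P2 cortex this sum was 0 CPM. Of 11396 genes, 1547 were higher in radial precursors (13.6%) and 1623 lower (14.2%). Mitotic genes led the lower side because of how the cells were chosen: Ccnb1, cyclin B, had 1.49, 1.18 and 2.30 CPM in radial precursors of P7 SVZ, P7 cortex and P2 cortex, against 224, 305 and 225 CPM in activated cells. Depdc1a and Ska3 had no UMI in any radial precursor sum, and Aurkb, Ska1, Plk1, Troap, Hmmr, Cenpe, E2f8, Ndc80 and Cep55 fell likewise. Of 24 S phase genes, 0 rose and 24 fell (median -2.65), and of 20 activation and commitment genes 0 rose and 17 fell (median -2.37). Activated cells exceeded the limit on mitotic genes (169 cells), that on Egfr, Dll1 and Pdgfra (213 cells) or both. These falls thus also reflect how the cells were chosen.

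Genes higher in radial precursors than in activated cells again included Lipg (3.60), Capsl (3.66), Enkur (3.02) and Riiad1 (2.75). Cntnap2, a neurexin-family adhesion molecule, had 78.2, 184 and 264 CPM, against 10.1, 27.1 and 53.9 CPM in activated cells (2.71, SE 0.24, edgeR adjusted p = 3.81e-05). Rarres2, which encodes chemerin, rose by 2.85, Gpr37 by 2.78 and Col1a2 by 2.63. Rgs5 (3.04), Gatsl3 (2.77) and Lpar3 (2.74) lost the call without P7 cortex, at edgeR adjusted p of 0.112, 0.0694 and 0.0637, and Gatsl3 also without P7 SVZ, at 0.117. Rgs5 is also a mural marker; the 6 mural markers summed to 134, 122 and 134 CPM in radial precursors, of which Pdgfrb made up 92.02, 74.3 and 104 CPM, and Vtn lay at 0.373, 1.47 and 0 CPM. In the restricted comparison, which had too few activated cells in P2 cortex and called 5.57% of 9522 genes higher and 7.3% lower, 11 of the 12 named genes were still higher. That comparison rested on few activated cells: 24 of 83 in P7 SVZ and 28 of 153 in P7 cortex.

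Against activated cells, 15 of 24 radial and stem cell genes rose and 0 fell (median 0.90, against 0.05 over all genes). Vim (1.03), Hopx (1.69), Gfap (1.58) and Fam107a (2.14) rose, while Nes (0.11, edgeR adjusted p = 0.615) and Pax6 (0.57, edgeR adjusted p = 0.0838) did not pass. Quiescence genes gave 12 of 21 higher and 0 lower (median 0.96), with Aldoc at 2.03, Id4 at 1.91 and Clu at 1.90, and astrocyte maturation genes 14 of 30 higher and 0 lower (median 0.90; 5 of 29 in the restricted comparison). Matrix genes gave 14 of 23 higher and 1 lower, with Sparc at 2.17, and lipid genes 10 of 23 higher and 0 lower. Of the pathways, 4 of 16 BMP, 5 of 18 Wnt, 2 of 17 Notch, 2 of 13 FGF and 1 of 11 Hedgehog genes rose, with 0, 0, 3, 1 and 1 lower; the Notch, FGF and Hedgehog counts were near the 13.6% higher over all genes. Jag1 went against its direction in the first comparison, with 28.7, 11.5 and 10.4 CPM in radial precursors and 51.5, 35.2 and 32.7 CPM in activated cells (-1.29, SE 0.28, edgeR adjusted p = 0.00693). Ventral genes gave 2 of 11 higher and 7 lower, among them Gsx2 (-2.21), Dlx1 (-2.78) and Olig2 (-3.31), and dorsal genes 3 of 10 higher and 0 lower. Oligodendrocyte precursor markers, which include Olig2, summed to 807, 936 and 645 CPM in activated cells and 96.1, 183 and 89.8 CPM in radial precursors. Neuroblast markers, which include Dlx1, summed to 470, 591 and 601 CPM in activated cells and 169, 183 and 315 CPM in radial precursors. The part of such RNA in the ventral falls was not tested. All counts of this comparison come from classes set apart by UMIs of Egfr, Dll1, Pdgfra and mitotic genes, so they describe the gated classes. They also rested on single libraries. Without P7 SVZ the genes higher were 10 radial and stem cell, 7 maturation, 8 matrix, 6 lipid, 2 BMP, 2 Wnt, 0 Notch, 0 FGF and 0 dorsal genes. Without P7 cortex they were 10, 9, 7, 7, 0, 2, 0, 0 and 0 of the same lists, and Hopx, Fam107a, Id4, Jag1 and Gsx2 were not called (edgeR adjusted p of 0.0619 to 0.103). Without P2 cortex 9 BMP genes rose.

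At P7 the V-SVZ and the cortex dissection could be set side by side, though strain, dissection and library differ together there and their parts cannot be told apart. There is 1 library on each side, so no test was made; a gene was counted as different when the whole counting interval of its ratio lay beyond 2-fold and its level reached 20 CPM in either library. By this measure 231 of 7213 genes were higher in radial precursors of P7 SVZ (3.2%) and 162 lower (2.25%), 5.45% in either direction. Immediate early genes stood out among the listed ones, with 8 of 16 dissociation-response genes higher and 1 lower (median log2 ratio 1.36, against -0.07 over all genes). Egr1 had 550.6 CPM in radial precursors of P7 SVZ, against 75.5 CPM in P7 cortex (7.29-fold, 6.38 to 8.36), and its ratio in marker-negative cells was 6.27. Zfp36 (9.48-fold), Btg2 (5.86-fold), Ier2 (5.63-fold) and Fosb (3.62-fold) were higher too, and Hspa1a was lower (0.168-fold). The mitochondrial share of radial precursors was higher in the same library, and the part of handling was not tested.

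Hes5, a Notch effector of stem cells, had 1862 CPM in radial precursors of P7 SVZ, against 573 CPM in P7 cortex (3.25-fold, 3.08 to 3.43), while its ratio was 1.61 in marker-negative cells and 4.70 in activated cells. Id1, a BMP target, was 2.50-fold higher, Cdkn1b, a cell cycle inhibitor, 2.71-fold, and Vcan 3.07-fold. Of their lists, 1 of 13 Notch genes was higher and 1 lower, 1 of 12 BMP genes was higher and 0 lower, 3 of 20 quiescence genes were higher and 2 lower (median log2 ratio -0.28), and 1 of 23 matrix genes was higher and 1 lower. Sfrp1 ran the other way, with 367 CPM in P7 SVZ against 1048 CPM in P7 cortex (0.351-fold, 0.326 to 0.376), and it did so in marker-negative cells as well (0.384-fold). Mycn (0.235-fold, against 1.05-fold in marker-negative cells), Etv4 (0.158-fold), Fzd1 (0.243-fold) and Nrarp (0.412-fold) were lower. Thbs4 had 32.4 CPM in P7 SVZ, against 92.6 CPM in P7 cortex (0.350-fold), and its ratio in marker-negative cells was 3.66.

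Astrocyte maturation genes were lower in radial precursors of P7 SVZ, 7 of 28 with 0 higher (median log2 ratio -0.72). With cells holding other lineages' RNA left out, 6 of 28 were lower and 0 higher (median -0.35). Other cells differed in the same direction. The 8 astrocyte markers summed to 4912 CPM in P7 SVZ and 6596 CPM in P7 cortex in radial precursors. These sums were 2990 and 6285 CPM in marker-negative cells, and 1083 and 3486 CPM in all kept cells. Igfbp2 had 16.4 CPM in P7 SVZ, against 223 CPM in P7 cortex (0.0736-fold), and Slc7a10 (0.295-fold), Acsbg1 (0.327-fold), Mlc1 (0.335-fold) and Gjb6 (0.219-fold) were lower as well. Dorsal genes had 0 of 8 beyond 2-fold in either direction (median -0.65). The largest ratios belonged to other genes: Npy, Slc17a7, Cplx3, Trim12a and Rprml had no UMI in radial precursors of P7 cortex, and Sncb, Snhg11, Nrgn and Syt1, most of them neuronal, were at most 0.885 CPM there. Excitatory neuron markers summed to 107 CPM in radial precursors of P7 SVZ and 21.8 CPM in those of P7 cortex, and to 433 and 100.4 CPM in all kept cells. AY036118 had 1444 CPM in P7 SVZ against 8.85 CPM in P7 cortex, with 805.8 and 9.83 CPM in all kept cells, and S100a10 had 223.5 against 2.06 CPM. Genes at the low end included Gdf5, Bricd5 and BC023719, with no UMI in P7 SVZ, and Adora2b, at 7.08 CPM against 121 CPM; Slc14a2, Spp1, Prss56, Prss22, Tpm3-rs7, Eif3j2 and Hbb-bs were low there too.

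Between P2 and P7 in the cortex dissection, 121 of 6901 genes were higher in P7 radial precursors (1.75%) and 64 lower (0.927%), 2.68% in either direction. Astrocyte maturation genes stood out among the listed ones, with 10 of 28 higher and 0 lower (median log2 ratio 1.15, against -0.02 over all genes). Gfap had 1722 CPM in radial precursors of P7 cortex, against 278 CPM in P2 cortex (6.19-fold, 5.64 to 6.81), and Aqp4 had 632 CPM against 118 CPM (5.35-fold, 4.63 to 6.20). Gja1 (4.40-fold), Slc1a2 (3.25-fold) and Ntsr2 (49.9-fold, 25.2 to 116) were higher as well. Marker-negative cells had the same direction for each of these, with ratios of 11.5 for Gfap, 9.83 for Aqp4, 6.56 for Gja1, 8.26 for Slc1a2 and 8.44 for Ntsr2.

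**Figure D5:**
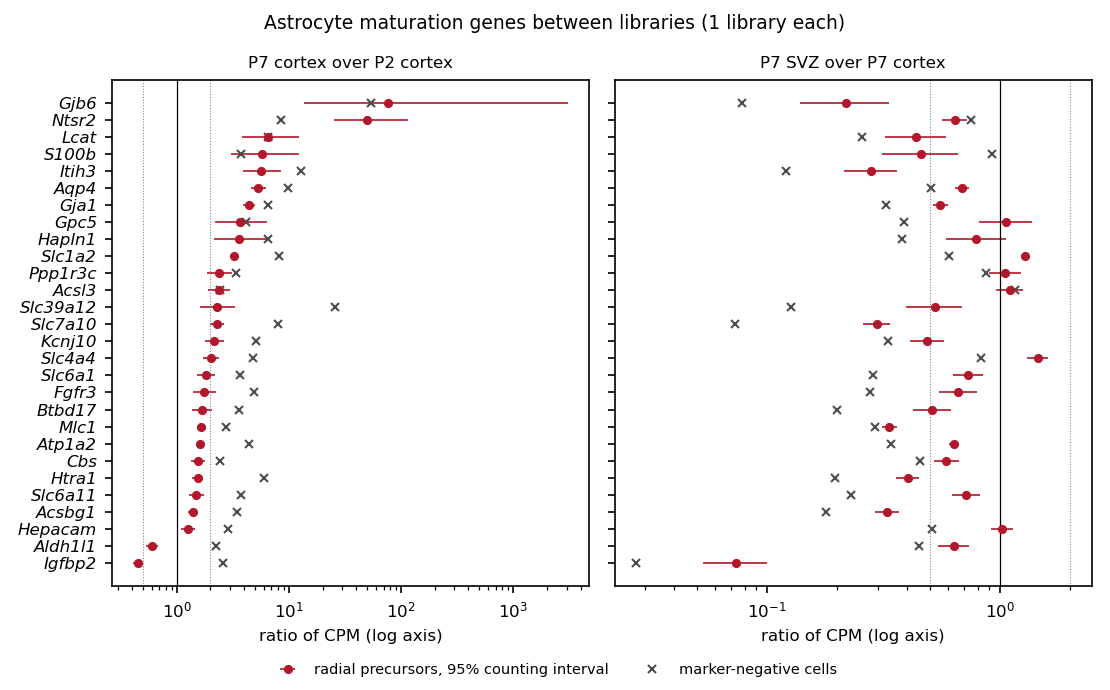
Ratio of CPM (x axis, log scale) of 28 astrocyte maturation genes (y axis) for P7 cortex over P2 cortex (left) and P7 SVZ over P7 cortex (right), in radial precursors with 95% counting intervals and in marker-negative cells; dotted lines mark 2-fold. Of the 28 genes, 26 lay above 1 in radial precursors on the left, where Aldh1l1 and Igfbp2 lay below 1, and Igfbp2 had the lowest ratio on the right (0.0736).

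Of 24 radial and stem cell genes, 3 were higher and 0 lower at P7 (median log2 ratio 0.02, against -0.02 over all genes). Thbs4 had 92.6 CPM in radial precursors of P7 cortex, against 1.15 CPM (2 UMIs) in P2 cortex (80.4-fold, 22.1 to 667), and Fam107a had 103 CPM against 8.64 CPM (11.95-fold, 7.15 to 21.6). Id3 (4.76-fold), Clu (3.18-fold), Cpe (3.47-fold) and Apoe (2.10-fold) were higher too, and 5 of 20 quiescence genes were higher and 1 lower. Fabp7, a gene of the rule, had 7718 CPM in radial precursors of P7 cortex, against 20148 CPM in P2 cortex (0.383-fold). Its ratio was 1.47 in marker-negative cells. Both classes were chosen by their UMIs of Slc1a3 and Fabp7, so these ratios are given only as a description. In P2 cortex only 23 of 175 marker-negative cells met the limit on RNA of other lineages. Dorsal, Notch, Wnt and FGF lists had 0 genes beyond 2-fold in either direction.

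The genes with the largest ratios with age included many known from other cell types. Ccl3, Ccl4, Ccl2, Fcer1g, Fcrls, Ctss, Ly86, Lyz2 and Ccl9, mostly microglial genes, had 20.6 to 42.5 CPM in radial precursors of P7 cortex and no UMI in those of P2 cortex, as did Bcas1 and Hbb-bs. Prss22 had 23.6 CPM there, against 2.21 CPM in marker-negative cells and 6.00 CPM in all kept cells of P7 cortex, and no UMI in radial precursors of P2 cortex. Microglial markers summed to 407 CPM in radial precursors of P7 cortex and 118 CPM in those of P2 cortex, and to 2691 and 162 CPM in all kept cells. Neuronal genes led the lower side: Syt4 had 0.590 CPM in P7 cortex against 125.5 CPM in P2 cortex, Stmn2 had 26.3 against 318 CPM, and Neurod6, Neurod2, Bhlhe22, Cck, Grp, Myt1l, Stmn4, Jph4, Sla and Tmsb15b1 were lower with ratios of 0.0146 to 0.0878. Excitatory neuron markers summed to 21.8 CPM in radial precursors of P7 cortex and 124 CPM in those of P2 cortex, and the part of this RNA in the ratios was not tested. Meg3 turned with it: its ratio was 0.355 over all radial precursors and 1.53 in those without RNA of other lineages.

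The 31 cells of P15 cortex that met the rule held 174572 UMIs and were few for a comparison; 7 of them held at least 3 marker UMIs, and the others lay at the limit of 2. In their sum Sfrp1 had 768 CPM, Gfap 785 CPM, Thbs4 275 CPM and Vim 103 CPM, against 72.0, 69.6, 11.5 and 19.2 CPM in marker-negative cells of that library. Aqp4 had 85.9 CPM, against 306 CPM in marker-negative cells, and Fabp7 had 756 CPM, against 817 CPM. The limit that a count of 0 allows was 17.2 CPM in this sum, close to the level of Plagl1, which had 28.6 CPM (5 UMIs), against 8.26 CPM in marker-negative cells.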

How the data were processed

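Single-cell libraries of mouse brain, 1 for each of 7 groups, were read from matrices of raw UMI counts per gene and cell barcode, which the authors deposited; per the file headers the counter was Cell Ranger 3.0.2, and per the submitters' processing notes the build was mm10. No source used here states the cell calling, annotation release or strand setting, so reads of overlapping genes such as Veph1 and Ptx3 may not be fully separated. Cells needed at least 500 detected genes and at most 10% mitochondrial UMIs.

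The members and gene lists were chosen with earlier results of these data known. Cells were classed by the UMI limits given in the report, and counts were summed per library and class (at least 20 cells). The 9 sums were fitted together with edgeR 4.0.16 (R 4.3.3; limma 3.58.1; TMM, filterByExpr, quasi-likelihood, library as a block since each library gave every class), without the 18 genes of the rule, and p-values were Benjamini-Hochberg adjusted over all genes tested. With the library as a block, p-values measure how unevenly the class differences ran across 3 libraries of unlike age, dissection or strain. No group had a replicate. On simulated counts for the marker-negative comparison (11190 genes), 54% of genes changed 2-fold and 98% of those changed 4-fold were called; for the activated comparison (11210 genes) these shares were 34.7% and 98%.

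Pairs of libraries were compared by the CPM ratio with an exact 95% counting interval. Named genes were the 12 highest and 12 lowest log2 fold changes or ratios, among those past the threshold in the same direction in all 3 libraries (or beyond 2-fold in a pair) with at least 20 CPM in the higher class; mitochondrial, ribosomal and unnamed genes were left out, and list genes serve as examples. Doublets were called with scanpy 1.11.5 (expected rate 0.06) and kept in the main results. The alternatives were DESeq2 1.42.0, other size factors, no low-count filter, 2 classes, no block, each library left out, doublets left out, other rule limits, matched or thinned depth, Ptx3 left out, and cells with other lineages' RNA left out; the last pair was chosen after seeing the data. Python 3.11.15, numpy 2.4.6, scipy 1.17.1, pandas 2.3.3 and matplotlib 3.10.9 were used. Total UMIs and depth per class are in the report; intervals cover counting error only. A few genes are not reported here.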

Additional observations from a re-analysis of the deposited data

Results flagged for a closer look

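For 4 listed genes the ratio of radial precursors to marker-negative cells pointed in opposite directions in different libraries; these differences were not tested. Lfng, a modifier of Notch receptors, was 2.29-fold in P7 SVZ and 0.516-fold in P7 cortex. Ptprz1, a receptor phosphatase of radial glia, was 1.89-fold in P2 cortex and 0.5003-fold in P7 cortex. Slc39a12, a zinc transporter of astrocytes, was 4.36-fold in P2 cortex and 0.390-fold in P7 cortex. Wnt7a, a Wnt ligand, was 3.72-fold in P2 cortex and 0.525-fold in P7 cortex.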

How the results depend on the processing

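Named genes kept their direction in every alternative that could test them. List medians did not: with cells holding other lineages' RNA left out, the median log2 fold change against marker-negative cells was -0.12 for quiescence genes (0.90 over all cells), -0.05 for Hedgehog (0.93), -0.18 for matrix (0.49), -0.39 for Notch (0.26), -0.05 for Wnt (0.23) and -0.51 for lipid genes (0.10). With matched depth it was -0.09 for matrix and -0.14 for Notch genes. Among listed genes, Gfap (1.69 over all cells, -0.45) and the ratio of Meg3 in P7 cortex over P2 cortex (0.355 over all cells, 1.53) turned. Against marker-negative cells, genes higher and lower numbered 245 and 274 without the replicate block, 429 and 534 with cells holding other lineages' RNA left out, 653 and 580 with marker-negative cells of matched depth, and 674 to 1234 and 587 to 1298 with 1 library left out (without P7 SVZ 674 and 683, with P7 cortex left out 704 and 587). Against activated cells they numbered 213 and 562 without the block and 530 and 695 with those cells left out, with 468 to 1629 and 682 to 1733 when 1 library was left out (468 and 682 with P7 cortex left out, 633 and 807 with P7 SVZ left out); a fit of only these 2 classes gave 2338 higher. For P7 cortex over P2 cortex, 34 genes were lower without doublet calls, 75 were higher and 30 lower after thinning, and 30 were lower with cells of other lineages' RNA left out. The share meeting the rule was 5.19% in P2 cortex, 5.73% in P7 SVZ, 8.70% in P7 cortex and 0.690% in P15 cortex after thinning. It was 6.31%, 6.87%, 8.79% and 0.244% with at least 3 marker UMIs (0 in P60 cortex), and 6.09%, 7.09% and 9.13% in the first 3 of these without Ptx3. With up to 20% mitochondrial UMIs it was 8.64% in P7 SVZ. After thinning, Emx1 was found in 8.40%, 18.4% and 20.8% of radial precursors in P7 SVZ, P7 cortex and P2 cortex, and Gsx2 in 0.813% and 0.825% in the first pair. Of 48 named calls, 6 were lost without the block, 4 when P7 cortex was left out, 1 when P7 SVZ was left out, 1 with at least 3 marker UMIs and 1 with DESeq2. With matched depth 6 of 21 calls that could be tested were lost, and with other lineages' RNA left out 1 of 30. The causes of these changes were not tested.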
